A study of Caenorhabditis elegans with 48 samples.

Results

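The comparison described here set the middle of the sampled day against its 2 ends in adult *C. elegans* treated with K-NAA, a synthetic auxin that triggers degradation of proteins carrying an auxin-inducible degron. Its members are 16 of the 48 whole-body poly(A) RNA-seq libraries of the study. The 8 midday libraries came from CT9, CT11, CT13 and CT15, where CT is circadian time in hours. The 8 edge libraries were 4 of an early edge, CT1 and CT3, and 4 of a late edge, CT21 and CT23. Both sides have the same mean time, so a change that runs in a straight line through the day cancels. What remains is a level in the middle that is higher or lower than the average of the 2 ends. Such a difference also arises when the middle differs from either end alone, so it need not be a peak or trough. The question is whether transcripts still had a midday peak or trough after depletion of NHR-23.

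All worms, mock-treated ones included, were adults of the strain JDW259. They carry the single-copy transgene wrdSi55, which expresses the plant F-box protein TIR1 under the *eft-3* promoter, active in most somatic cells, and the knock-in allele *nhr-23*(kry61), which adds a degron, a TEV site and a FLAG tag to NHR-23. The worms were entrained by alternating warm and cold periods, sterilized with FUdR, an inhibitor of DNA synthesis that blocks the growth of progeny, and released into the constant cold temperature. The K-NAA group was moved to plates with 0.4 mM K-NAA 12 h before sampling began, and the mock group to plates without it. This dose is that of the sample labels, and the methods of the study give a different one. Each library is 1 culture plate of many worms, with 2 plates per time point. The strain comes from 1 knock-in allele, and no K-NAA library without the degron was analysed here, so depletion of NHR-23 and exposure to K-NAA cannot be told apart.

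NHR-23 is the worm homolog of ROR, a nuclear receptor that in mammals binds response elements of clock-controlled genes and sets the phase in which they are transcribed. In worms NHR-23 is best known for driving the molting cycle of larvae, in which collagens, cuticle proteins and proteases of the apical matrix are made in waves. Homologs of other clock genes, among them *lin-42* for Period and *kin-20* for casein kinase 1, act in the same larval timer. In adults the cuticle is no longer shed, and daily rhythms of mRNA are weak.

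The values are TPM, a measure of transcript abundance corrected for transcript length, which are scaled to the same total in every library and keep no record of depth, so the number of reads behind a value is unknown. Differences are given on the log2(TPM + 0.5) scale, where a difference of 1 is a doubling and changes of genes near 0 TPM are understated. Of 19885 genes in the files, 13813 whose average over the 48 libraries reached 0.25 TPM were tested with limma, and adjusted p-values are Benjamini-Hochberg values over all of them. A call means an adjusted p under 0.05. A looser threshold of 0.30, which the study uses for rhythms, is given beside it. Between 15239 and 16095 genes were above 0 in the 16 libraries, the 10 most abundant genes held 6.67 to 8.46% of the total, and the 2 plates of a time point correlated at 0.979 to 0.989 across genes. The first principal component of the 16 libraries (16.5% of the variance) did not follow the sides of the comparison: CT1 replicate 2, CT11 replicate 2, CT13 replicate 2 and CT23 replicate 2 lay at one end and CT23 replicate 1 at the other. The second (12.2%) ran with the edges, with median scores of -13.6 at the early edge, -2.43 at midday and 6.39 at the late edge. CT1 replicate 1, at 9.025, stood apart from the other 3 early libraries, at -18.7 to -9.30, and without it the comparison of midday with the early edge gave 32 calls in place of 64.

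No gene passed between midday and both edges. The count was 0 of 13813 at an adjusted p under 0.05 (0%) and 0 at 0.30 (0%), and every adjusted p was 1. At an unadjusted p under 0.05, 307 genes (2.22%) were higher and 221 genes (1.6%) lower at midday. When no gene changes, a share of about 0.05 of the tested genes falls under this threshold. Counts at an unadjusted p, here and below, are therefore not read as signal. The median absolute difference over all tested genes was 0.06, against a median standard error of 0.10. The data also bound the change that could have been missed. For 46.3% of the tested genes the 95% interval of the difference lay within 0.25 of 0 on the log2 scale, for 82.6% within 0.5, and for 96.5% within 1. Among the 11213 genes averaging 1 TPM or more in the 16 libraries these shares were 56.1, 88.3 and 97.6%. Since the libraries of a side come from 4 time points, the spread used in the test holds both the difference between plates and any change between those time points.

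The count of 0 rested on the settings of the test and on 1 time point. Without CT15, 3 genes passed at an adjusted p under 0.05 from limma: *ecps-2* at 0.00525, the C-type lectin gene *clec-145* at 0.0386 and the antibacterial peptide gene *abf-2* at 0.0386. Without CT15 replicate 1 alone, *ecps-2* passed in limma (adjusted p = 0.0394). When each of the 12 time points had a mean of its own, so that plates of the same time point alone set the spread, 3 other genes passed, all lower at midday: *T19C3.5* and *aman-1* (adjusted p = 0.0129 for both, limma) and *T19C4.24* (adjusted p = 0.0216). This last fit treats every change between neighbouring time points as signal and averages over it.

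The genes that led the comparison are therefore described by their values, with no claim that they changed. The rule took the 12 genes on each side with the smallest unadjusted p among those averaging 1 TPM or more whose 2 edges lay on the same side of midday. Among the 12 with higher values at midday, *ecps-2* (WBGene00010364, chromosome III, 10443090 to 10444946 on the plus strand of WBcel235) had the smallest p. Its 8 midday libraries had a lowest, median and highest value of 19.1, 26.7 and 29.8 TPM, and its 8 edge libraries 19.3, 19.97 and 22.2 TPM. The 6 libraries of CT9, CT11 and CT13 held 25.3 to 29.8 TPM and lay above all edge libraries, and the 2 of CT15, at 19.1 and 22.97 TPM, did not all lie above them. The log2 difference was 0.33 (95% interval 0.17 to 0.49, unadjusted p = 0.000379, adjusted p = 1, limma).

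*fbxa-216*, a gene of the large F-box family that recruits proteins for ubiquitination, held 2.80, 3.13 and 3.91 TPM (lowest, median, highest) at midday and 2.23, 2.403 and 3.00 TPM at the edges. The sides overlapped through 1 edge library, CT21 replicate 2, which lay above both libraries of CT15. Its log2 difference was 0.33 (unadjusted p = 0.000655, adjusted p = 1, limma). *ing-3*, a homolog of the inhibitor of growth family of chromatin proteins, had a small and even difference of 0.14: its midday libraries ran from 37.1 to 42.1 TPM around a median of 39.1, and its edge libraries from 33.9 to 37.9 TPM around 35.5. The transthyretin-related gene *ttr-29* had the largest difference of the 12, 0.62, with midday values of 1.75, 2.37 and 3.77 TPM. Its early edge held 1.25, 0.987, 1.02 and 1.39 TPM, below every midday library, while its late edge held 1.37, 2.36, 1.78 and 2.32 TPM and overlapped with midday in 3 of 4 libraries. *Y54G2A.36* stood at 55.0 TPM (median; range 38.9 to 66.0) at midday and 41.0 TPM (31.7 to 47.9) at the edges, and *C16C10.2* at 78.9 TPM (74.2 to 82.1) and 68.7 TPM (63.6 to 78.1).

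The other 6 genes of that side were *Y43F8B.9*, *F45E4.5*, *H04D03.7*, *T07F12.1*, *C24A8.6* and the C-type lectin gene *clec-65*. *H04D03.7* is the neighbor of *ecps-2*, on the opposite strand. Their log2 differences ran from 0.19 for *clec-65* to 0.51 for *H04D03.7*. *clec-65*, the most abundant of the 6, held 64.0 TPM (54.7 to 68.0) at midday and 56.0 TPM (49.3 to 59.1) at the edges, so that its sides overlapped in several libraries.

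Among the 12 genes with lower values at midday, *ule-1* was the single gene of the 13813 tested, 0.00724%, whose 8 midday and 8 edge libraries did not overlap in either direction. It is named for its product in the lumen of the uterus and lies on chromosome I (WBGene00021005, 2219468 to 2222313, minus strand). Midday values were 374, 501 and 579 TPM (lowest, median, highest), and edge values 581, 618 and 657 TPM. The gap between the sides was narrow, from 579 TPM in CT9 replicate 1 to 581 TPM in CT3 replicate 2, and the lowest level fell at CT11. The log2 difference was -0.33 (95% interval -0.49 to -0.16, unadjusted p = 0.00051, adjusted p = 1, limma). The two-sided exact permutation p of a gene with no overlap is always the smallest that 8 against 8 libraries allow, 0.000155, before any adjustment for the choice of the gene.

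*Y37D8A.19*, on chromosome III (WBGene00012557, 12929873 to 12931435, plus strand), was the most abundant gene of this side. It held 1027, 1251 and 1532 TPM at midday and 1370, 1563 and 1703 TPM at the edges, for a log2 difference of -0.28 (unadjusted p = 0.000578, adjusted p = 1, limma). Of the midday libraries, CT15 replicate 2 alone reached above the lowest edge library. *F57C2.4* had a median of 333 TPM at midday and 386 TPM at the edges (log2 difference -0.21). The sphingomyelin synthase gene *sms-2* had medians of 11.2 and 14.6 TPM (-0.26), and *nspe-1*, of a nematode-specific peptide family, of 279 and 434 TPM (-0.48). In *nspe-1*, CT3 replicate 2 at 318 TPM and CT21 replicate 2 at 266 TPM were the edge libraries within the midday range of 232 to 402 TPM.

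**Figure D1:**
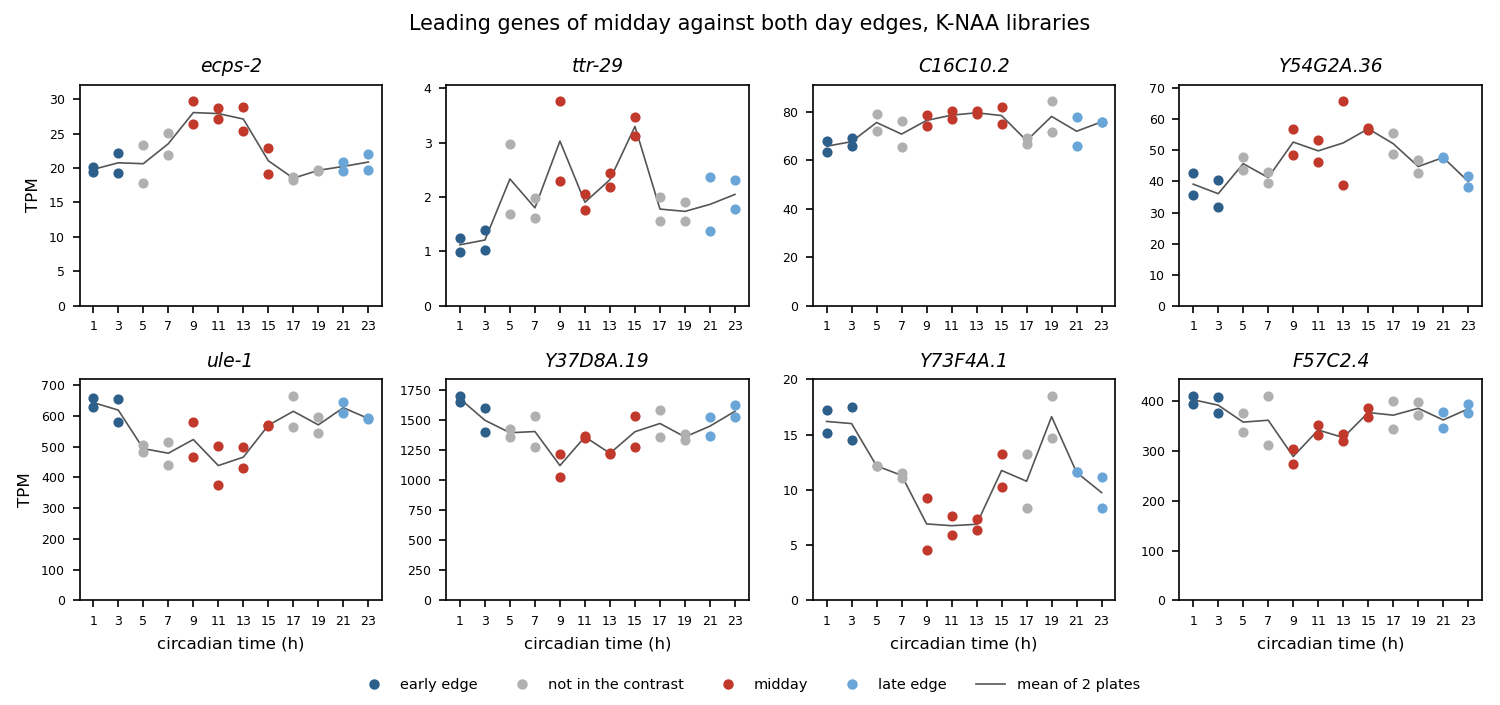
TPM of 8 leading genes of midday against both edges in each K-NAA library (y axis, from 0) by circadian time in hours (x axis). Each point is 1 plate, the line is the mean of the 2 plates, and colors give the early edge, midday, the late edge and the time points not in the contrast. *ecps-2* lies at 25.3 to 29.8 TPM from CT9 to CT13, and in *ule-1* the highest midday library, at 579 TPM, is below the lowest edge library, at 581 TPM.

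Several of the lower genes were also lower at midday than at the early edge alone. *Y73F4A.1* (chromosome IV, 9043994 to 9045352, minus strand) held 15.2, 17.2, 14.5 and 17.5 TPM at the early edge. It then held 4.60 to 9.24 TPM in the 6 libraries of CT9 to CT13, 13.3 and 10.3 TPM at CT15, and 11.6, 11.6, 8.38 and 11.1 TPM at the late edge. Between midday and the late edge, outside the contrast, it held 13.3 and 8.32 TPM at CT17. It was back near the early level at CT19, with 14.7 and 18.5 TPM. Its log2 difference against both edges was -0.72. The ligand-gated ion channel gene *lgc-28* (difference -0.66) held 1.85, 2.71, 1.74 and 2.31 TPM at the early edge and 0.554 to 1.38 TPM at midday, and stood at 1.48, 1.43, 0.883 and 0.994 TPM at the late edge. *C10C5.5* (-0.56), *Y116A8C.19* (-0.67), *F58B4.6* (-0.55), *pes-23* (-0.35) and *Y53F4B.23* (-0.61) completed the 12. In *Y116A8C.19* 1 library, CT3 replicate 2 with 4.19 TPM, was far above the other 7 edge libraries.

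*aman-1*, an alpha-mannosidase gene, and *T19C3.5* were not in the rule's 24 genes and are described because they passed once each time point had its own mean. *aman-1* (WBGene00018877, chromosome X, 4733095 to 4738592, plus strand) held 5.37, 7.05, 6.05 and 5.16 TPM at the early edge. In the midday libraries from CT9 to CT13 it held 2.52, 1.29, 1.56, 1.49, 1.57 and 1.39 TPM, and at CT15 3.90 and 3.51 TPM. The late edge, at 2.49, 2.62, 2.05 and 2.12 TPM, lay within the midday range. *T19C3.5* (chromosome III, 624578 to 627938, minus strand) went from 6.24, 6.67, 5.58 and 6.40 TPM at the early edge to 1.85 to 2.89 TPM at CT9 to CT13, then to 5.13 and 4.52 TPM at CT15 and 3.42 to 3.99 TPM at the late edge. In both genes the 2 plates of CT15 were higher than all 6 libraries of CT9 to CT13, so a mean over the 8 midday libraries mixes 2 levels. *T19C4.24* also passed in that fit, on a mean of 26.6 TPM, but its edges went opposite ways, with log2 differences of 1.78 for midday minus the early edge and -5.07 for midday minus the late edge.

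**Figure D2:**
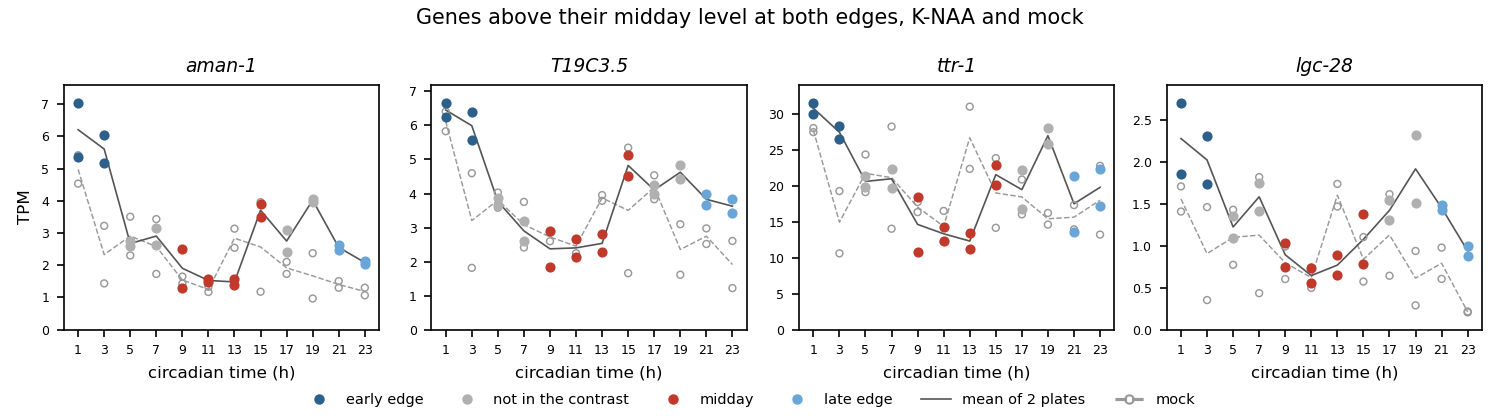
TPM of *aman-1*, *T19C3.5*, *ttr-1* and *lgc-28* (y axis, from 0) by circadian time in hours (x axis). Filled points are the K-NAA plates colored by side and the solid line is their mean; open gray points and the dashed line are the mock plates. The early edge of K-NAA lies above every midday library in the 4 genes, and in *aman-1* CT15, at 3.90 and 3.51 TPM, lies above CT9 to CT13, at 1.29 to 2.52 TPM.

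Neither the transcript of the targeted factor nor any clock gene homolog was called. *nhr-23* (WBGene00003622, chromosome I, 7214745 to 7221299, plus strand) held 27.4, 31.6 and 33.98 TPM (lowest, median, highest) at midday and 28.3, 31.5 and 33.5 TPM at the edges, so that the sides overlapped fully. The log2 difference was 0.01 (95% interval -0.09 to 0.12, limma), and the two-sided exact permutation test over the 8 and 8 libraries gave p = 0.797. The degron acts on the protein, so this mRNA does not check the depletion. All 11 genes of the list, *nhr-23* included, were tested, and none had an unadjusted p under 0.05, with differences from -0.12 in *atf-2* to 0.17 in *ces-2*. *lin-42*, the Period homolog, had midday values of 1.53, 1.40, 1.33, 1.36, 2.79, 1.82, 2.16 and 2.05 TPM and edge values of 1.99, 2.14, 1.66, 1.27, 1.84, 1.35, 3.46 and 0.825 TPM. Its log2 difference was 0.03 with a 95% interval from -0.36 to 0.42, so this gene, near 2 TPM, was bounded only loosely. *kin-20*, with a difference of -0.08 (interval -0.20 to 0.04), and *tim-1*, the Timeless homolog, with -0.02 (interval -0.19 to 0.16), were bounded more closely. For the PDF neuropeptide genes, whose peptides act in the clock circuit of flies, the differences were 0.01 (*pdf-1*), 0.13 (*pdf-2*) and 0.07 (receptor *pdfr-1*).

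The 9 genes listed here as cluster ii were chosen by the study on another data set. They are collagen, molting and apical matrix genes, the zinc-finger factor gene *egl-46* and *T14B1.1*. The study also names the molting gene *mlt-10* among the genes of this cluster, so the 9 used here may not match its set. *mlt-10* was left out of the 9, counted under molting proteins, and had a difference of 0.06. The 9 had a median difference of 0.12, with 1 gene, *T14B1.1*, at an unadjusted p under 0.05 and higher at midday (log2 difference 0.25, adjusted p = 1, limma). *dpy-2*, a collagen of the annular furrows, had means of 1.66 TPM at midday and 1.27 TPM at the edges (0.30), *mlt-8* 3.78 and 3.25 TPM (0.20), *dpy-17* 22.7 and 20.1 TPM (0.17) and *sqt-3* 12.95 and 11.8 TPM (0.12). *egl-46*, *noah-1* and *mlt-11* had differences of -0.06, -0.06 and -0.04. With the edges apart, the median of the 9 was 0.23 for midday minus the early edge and -0.09 for midday minus the late edge. Against the early edge 0 of them passed at 0.05 and 1 at 0.30, *mlt-8* (0.48, adjusted p = 0.227, limma).

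Treating the edges apart gave a different picture. Between midday and the early edge 64 genes passed at an adjusted p under 0.05 from limma, 28 higher (0.203%) and 36 lower (0.261%) at midday. At 0.30 the numbers were 357 (2.58%) and 257 (1.86%). Between midday and the late edge 0 genes passed at 0.05 (0%), 588 of 13813 had an unadjusted p under 0.05, and 2 passed at 0.30 (0.0145%). The late edge against the early edge, a comparison added once the edges were seen to differ, gave 125 genes (0.905%). The early and the late comparison share the midday libraries. Neither cancels a straight-line change over the day as the comparison with both edges does.

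**Figure D3:**
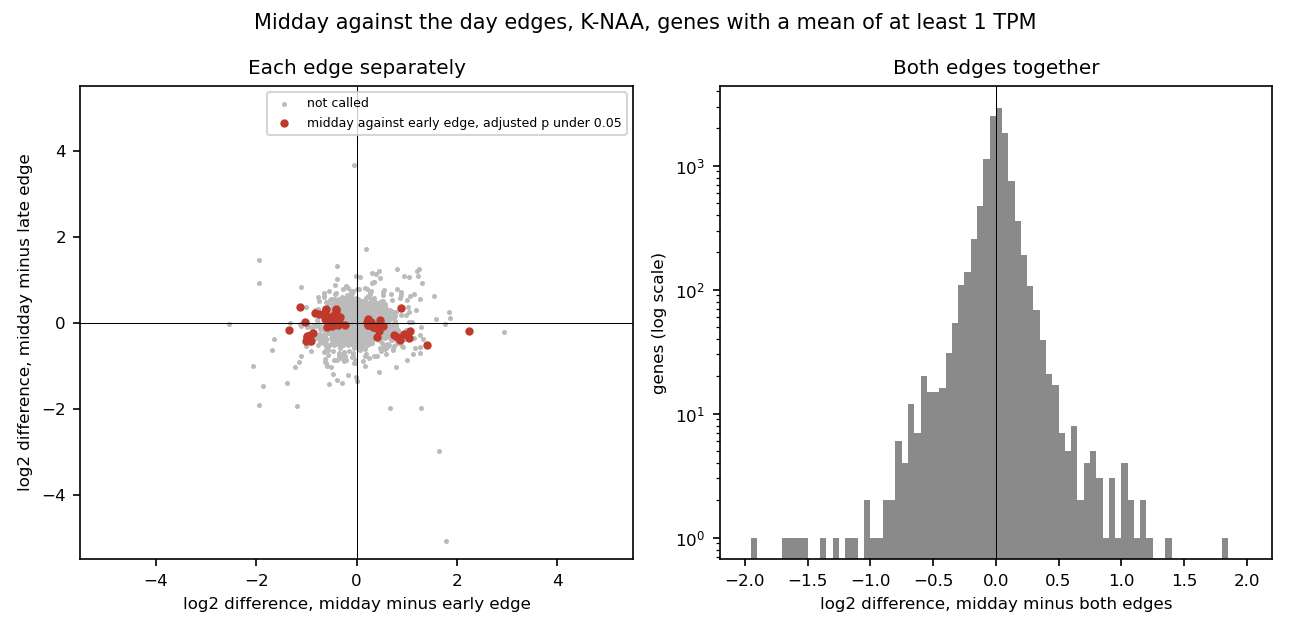
Left, log2 difference of midday minus the early edge (x axis) against midday minus the late edge (y axis), 1 point for each of the 11213 genes averaging 1 TPM or more, with genes called against the early edge in red; both axes share the midday libraries. Right, number of genes (log scale) by log2 difference of midday minus both edges. In 46 of the 64 called genes the 2 differences have opposite signs.

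Of the 64 genes, 46 had the 2 edges on opposite sides of midday: 23 were highest early and lowest late, and 23 lowest early and highest late. In 13 both edges lay above and in 5 both below midday. Over all tested genes these 4 patterns took 22.9, 25.1, 22.2 and 29.8%. In 51 of the 64 genes the 8 midday and 4 early libraries did not overlap, as in 217 of all tested genes (1.57%). The genes were called on these same libraries, so the larger share follows from the choice. It adds no support, here or for the groups of called genes below.

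Cuticle collagens were the largest group. Of 80 collagen genes tested, 10 were lower at midday than at the early edge at an adjusted p under 0.05 and 0 were higher, and 9 of the 10 did not overlap. Over all tested genes 0.261% were called lower. At 0.30, 22 were lower and 1, *col-183*, higher (0.985). The family did not move as 1: differences above 0, none called, included *col-3* (0.82), *dpy-3* (0.73), *dpy-14* (0.61), *dpy-7* (0.57), *dpy-17* (0.42) and *sqt-3* (0.41). The median difference of the list was -0.14 against the early edge, where the median of all tested genes was 0.02, and 0.11 against the late edge. Summed over the family, collagen mRNA ran from 13350 to 15090 TPM in the 4 early libraries, from 10450 to 12760 TPM at midday and from 9514 to 11220 TPM at the late edge. The sum weighs abundant members most. *col-80* (WBGene00000656, chromosome II, 10707201 to 10708287, plus strand) held 528, 447, 465 and 451 TPM early, 271 to 350 TPM at midday and 309, 314, 283 and 275 TPM late. Its log2 difference from the early edge was -0.60 (SE 0.07, adjusted p = 0.00203, limma), and midday and late edge overlapped. *col-101* went from 1039, 1024, 1022 and 1004 TPM to 767 to 861 TPM, then to 774, 760, 677 and 737 TPM (-0.34, adjusted p = 0.00203, limma). *col-93* had the largest fall of the 10, from 163, 134, 164 and 129 TPM to 47.1 to 91.7 TPM (-1.13, adjusted p = 0.00203, limma). It stood at 50.5, 58.2, 47.9 and 51.3 TPM at the late edge. *col-20*, *col-94*, *col-95*, *col-143*, *col-160*, *col-178* and *col-179* were the other 7, with differences from -0.84 in *col-94* to -0.35 in *col-143*. Reads of collagen genes with near-identical sequence may be divided between members, so values of single collagens are less certain than the sum.

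Other genes fell with the called collagens. The hedgehog-related genes *grd-3* (45.6 ± 8.08 TPM early, SD, n = 4 libraries, and 29.1 ± 3.31 TPM at midday, n = 8) and *grd-5* (50.7 ± 2.95 and 38.1 ± 4.28 TPM) had differences of -0.63 (adjusted p = 0.0179) and -0.41 (adjusted p = 0.0224, limma), and were 2 of the 43 tested members of that list. Named after their values were seen, the intermediate filament genes *ifa-4* (-0.63) and *ifb-1* (-0.36) and *pat-12* (-0.34), whose product belongs to the fibrous organelles that tie the epidermis to muscle and cuticle, were also called lower. The neuropeptide-like gene *nlp-24* fell by 0.42 on the log2 scale, 1 of 132 tested neuropeptide genes. Over all tested genes 0.261% were called lower, and nothing is read from list counts this small. As measured beside these, the 12 body wall muscle markers had a median difference of -0.17 and the 8 markers of coelomocytes and the excretory cell of -0.27, with 0 called at 0.05. Embryo markers had -0.18, pharynx markers -0.09, germline markers -0.03 and neuron markers -0.02, also with 0 called. The hypodermis markers, 9 tested and in part collagens themselves, had a median of 0.06, and their sum was 630 to 782 TPM at the early edge and 597 to 706 TPM at midday. None of the 8 marker lists had a gene at 0 in all 16 libraries, and their part in the result was not tested. In whole worms, fewer cells of a type and less RNA per cell cannot be told apart.

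Of 20 tested genes of the methionine cycle and phosphatidylcholine synthesis, 3 were called lower and 0 higher, with a list median of -0.10. Over all tested genes 0.261% were called lower, and the list was not tested as a whole. *sams-1* encodes the main S-adenosylmethionine synthase of the worm, and *pmt-1* and *pmt-2* encode methyltransferases that use its product to make phosphocholine. *sams-1* (WBGene00008205, chromosome X, 11965962 to 11969893, plus strand) held 75.3, 65.2, 74.3 and 67.6 TPM at the early edge, 45.2, 48.4 and 51.03 TPM (lowest, median, highest) at midday and 47.1, 47.1, 47.8 and 36.5 TPM at the late edge. All 8 midday libraries lay below the early edge, for a log2 difference of -0.54 (SE 0.07, adjusted p = 0.00203, limma). *pmt-2* went from 96.5 ± 8.10 TPM (SD, n = 4) to 74.6 ± 5.43 TPM (n = 8), with a difference of -0.37 (adjusted p = 0.0286, limma), and *pmt-1* from 117 ± 9.98 to 99.3 ± 4.82 TPM, with -0.24 (adjusted p = 0.049, limma). *pmt-1* was as high outside the contrast as at the early edge, with means of 129 TPM at CT7 and 129.5 TPM at CT19 against 121.9 TPM at CT1 and 112 TPM at CT3, and its call held in 1 of the 16 fits that each left out 1 library. *pmt-2* held in 10 of them. Outside the contrast *sams-1* held 55.8 and 53.95 TPM at CT5, 56.9 and 68.5 TPM at CT7, 53.0 and 53.6 TPM at CT17 and 60.95 and 54.8 TPM at CT19. All of these lay above every midday library. CT7 replicate 2, at 68.5 TPM, lay within the early range, and the rest lay below every early library. *mct-3*, of the monocarboxylate transporter family (-0.45), and *aass-1*, of lysine breakdown (-0.46), were called lower as well and were named after their values were seen.

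Genes that were higher at midday than at the early edge came from several functions. The metallothionein gene *mtl-1* held 80.3, 45.7, 46.8 and 63.1 TPM early, a midday median of 158.5 TPM (71.6 to 246) and 231, 249, 192 and 210 TPM late (log2 difference 1.39, SE 0.24, adjusted p = 0.0166, limma). The midday library of CT11 replicate 2, at 71.6 TPM, was the single one below the highest early library. The ferritin gene *ftn-1*, which stores iron, rose from 5.48, 4.78, 3.30 and 2.41 TPM to 5.89 to 12.4 TPM (1.07, adjusted p = 0.032, limma). In the libraries not in the contrast it was low again, at 2.20 and 2.04 TPM at CT7 and 3.21 and 4.13 TPM at CT19, so its course over the day was uneven. *dod-3*, a gene named as downstream of the insulin-regulated factor DAF-16, rose from 79.5, 75.6, 78.4 and 101 TPM to 105 to 158 TPM (0.74, adjusted p = 0.00834, limma). It likewise dropped to 58.9 and 42.4 TPM at CT7, outside the contrast.

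In lipid metabolism, *hacd-1*, a hydroxyacyl-CoA dehydrogenase of fatty acid breakdown, rose from 53.4, 47.5, 56.1 and 60.1 TPM to 64.9 to 82.1 TPM (0.45, adjusted p = 0.00809, limma), 1 of 38 tested beta-oxidation genes. The delta-12 desaturase *fat-2* rose from 458 ± 13.1 TPM (SD, n = 4) to 543 ± 36.1 TPM (n = 8), a difference of 0.25 (adjusted p = 0.049, limma). Its call held in 2 of the 16 fits that each left out 1 library. In defense and digestion, 2 of 107 tested C-type lectins, *clec-50* (0.40, adjusted p = 0.00972) and *clec-85* (0.35, adjusted p = 0.0224, limma), and the lysosomal aspartyl protease *asp-4* (0.28, adjusted p = 0.0239, limma) rose. Of 35 tested lysozymes and saposins, 0 passed at 0.05 and 9 at 0.30, all 9 higher at midday, with a list median of 0.19. Over all tested genes 0.203% were higher at 0.05 and 2.58% at 0.30, and no list was tested as a whole. Among 178 tested nuclear hormone receptors 1 was called, *nhr-76*, which held 12.3, 11.1, 12.6 and 10.6 TPM early, 14.2 to 18.3 TPM at midday and 21.2, 20.4, 19.5 and 17.9 TPM late (0.41, adjusted p = 0.0224, limma). *ZK355.8* was listed at 0 in all 4 early libraries and at 0 to 4.19 TPM at midday, so no fold is given. *dct-7*, *T12D8.5*, *scl-2*, *thn-2* and *C42D4.1* also rose, by 0.52 in *C42D4.1* to 1.05 in *dct-7*. Their calls held in 4, 2, 6, 2 and 7 of the 16 fits that each left out 1 library. The intestine markers, 11 tested, summed to 3400 to 3469 TPM at the early edge and 3382 to 4743 TPM at midday, with a median difference of -0.03 and 0 called at 0.05.

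**Figure D4:**
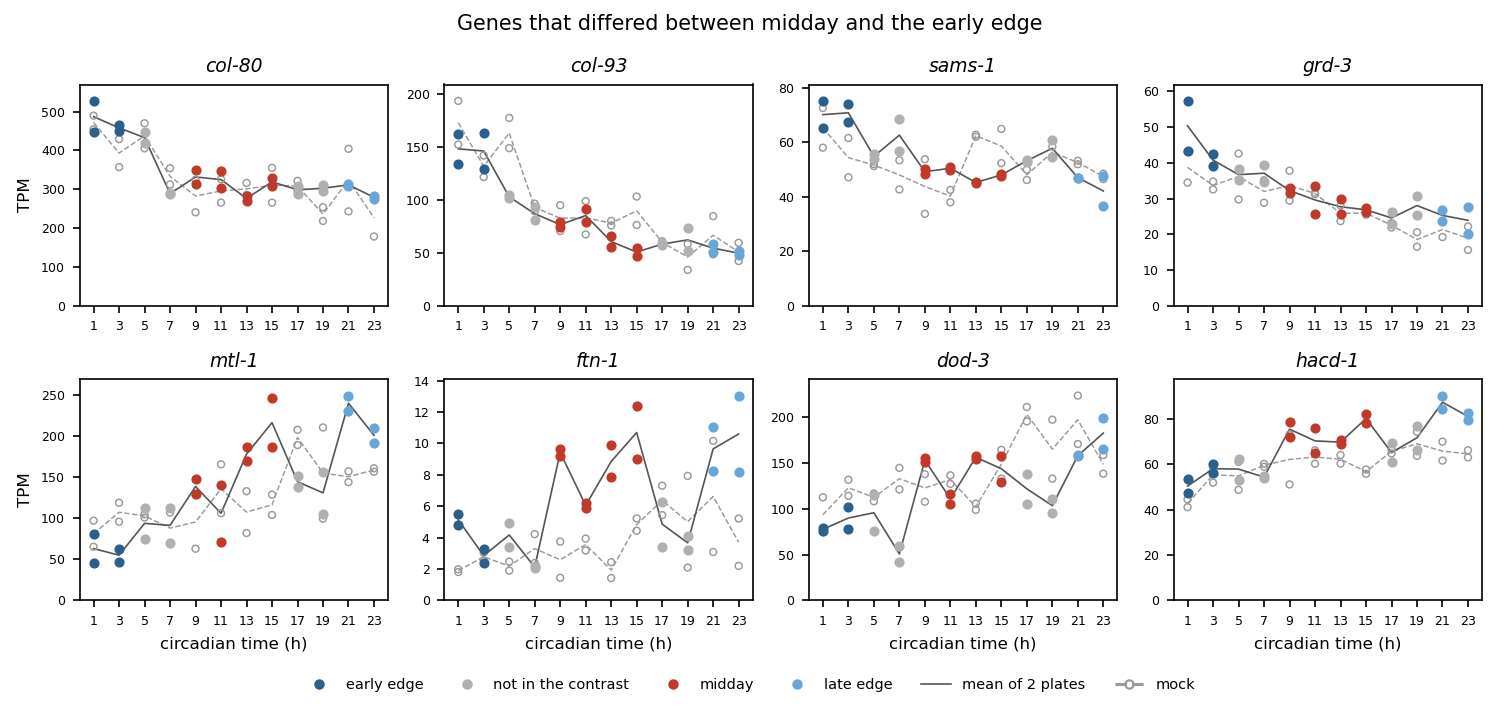
TPM of 8 genes that differed between midday and the early edge (y axis, from 0) by circadian time in hours (x axis). Filled points are K-NAA plates colored by side with their mean as a solid line; open gray points and the dashed line are mock plates. The collagens *col-80* and *col-93*, *sams-1* and *grd-3* are higher at the early edge than in every midday library, with *sams-1* above midday again at CT17 and CT19, and *mtl-1*, *ftn-1*, *dod-3* and *hacd-1* start low.

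These calls depended on having both early time points, and many of them on single early libraries. Without CT1 or without CT3, 0 genes passed at an adjusted p under 0.05 (lowest adjusted p 0.0702 and 0.0556, limma), and with replicate 1 left out of all time points 0 passed (lowest 0.411). With replicate 2 left out 4 passed, of which *sams-1* was 1 of the 64. All 64 kept their direction in these 4 fits, which hold fewer libraries and so have less power. The fits reuse libraries on which the genes were chosen, so this was largely set in advance. Leaving out single libraries gave 20 to 109 genes: 20 without CT1 replicate 2, 22 without CT3 replicate 1, 25 without CT3 replicate 2, 32 without CT1 replicate 1, 42 and 35 without CT9 replicate 1 and 2, 41 without CT11 replicate 1, 31 and 36 without CT13 replicate 1 and 2, and 109 without CT11 replicate 2. Without CT9, CT11 or CT13 the counts were 23, 99 and 10. In 13 genes the call held without each of the 16 libraries in turn: *col-20*, *col-80*, *col-93*, *col-95*, *col-101*, *lgc-25*, *sams-1*, *mct-3*, *mesp-1*, *clec-50*, *W05H9.1*, *hacd-1* and *dod-3*.

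The late edge gave little. *fipr-11*, of a family related to fungus-induced peptides, and *col-132* were the 2 genes at an adjusted p under 0.30 (0.291 for both, limma), and neither passed at 0.05. *fipr-11* held 1.51, 2.43, 1.52 and 1.48 TPM late, 2.43 to 5.82 TPM at midday and 5.69, 6.13, 4.77 and 4.69 TPM early. The difference between midday and the late edge was 1.01, and 1 late library, at 2.43 TPM, touched the midday range. *col-132* was below 1 TPM in every library and listed at 0 in 2 of the 4 late ones.

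**Figure D5:**
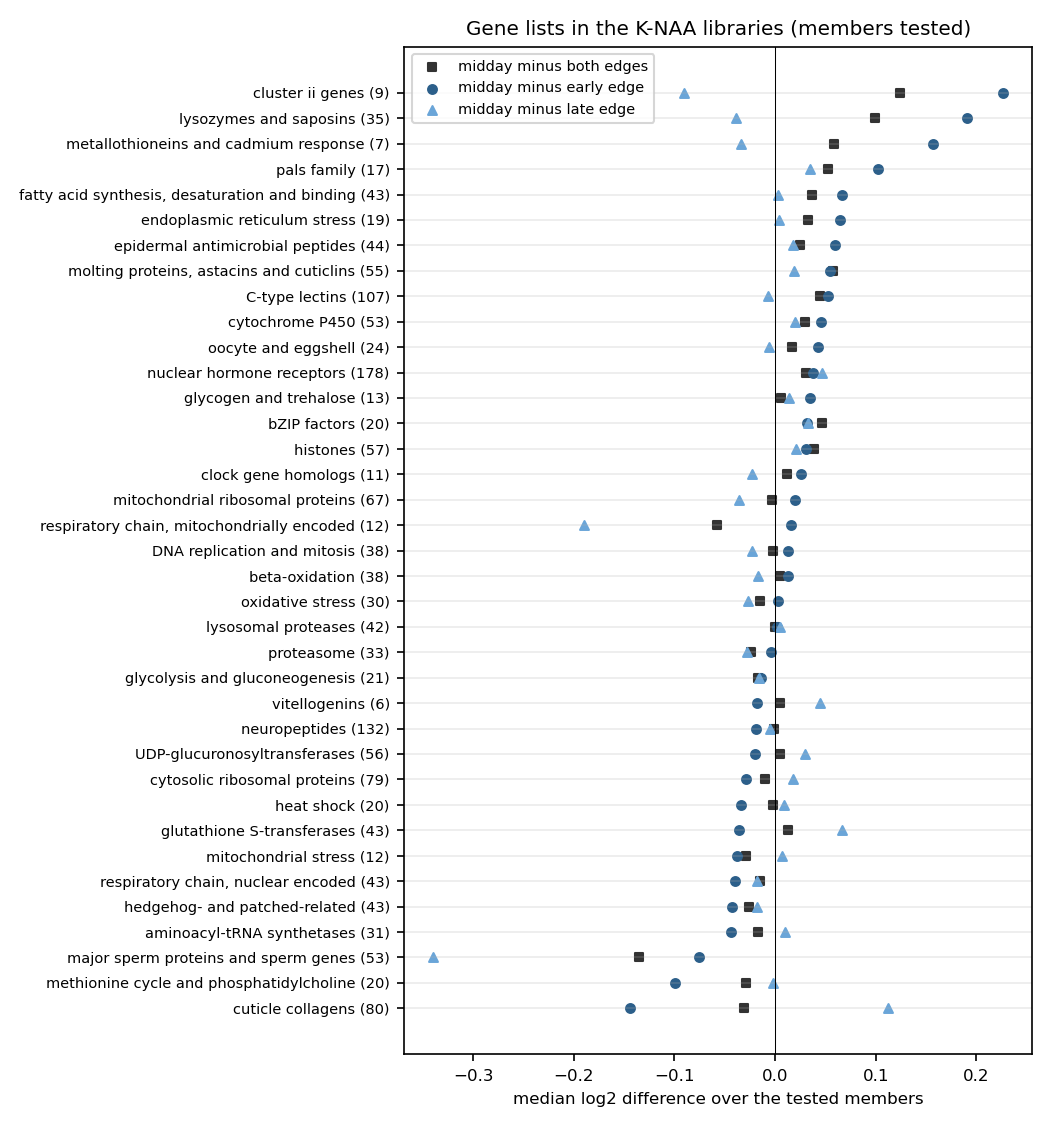
Median log2 difference over the tested members of each gene list in the K-NAA libraries (x axis), for midday minus both edges (squares), minus the early edge (circles) and minus the late edge (triangles); the number of members tested stands beside each list name on the y axis. The 3 comparisons share libraries. Cuticle collagens have medians of -0.03, -0.14 and 0.11.

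Across the gene lists, the comparison with both edges gave medians between -0.14, in 53 sperm genes, and 0.12, in the cluster ii genes. Nuclear hormone receptors had 9 of 178 members at an unadjusted p under 0.05 and higher and 1 lower, with a median of 0.03. Over all tested genes the shares at this threshold were 2.22% higher and 1.6% lower, and nothing is read from counts this small. Neuropeptides had 4 higher and 5 lower of 132, epidermal antimicrobial peptides 4 and 1 of 44, and C-type lectins 2 and 3 of 107. Cuticle collagens had 1 higher and 2 lower of 80, with a median of -0.03, since the early and the late edge lay on opposite sides of midday. The 6 vitellogenins, 12 mitochondrially encoded respiratory genes, 33 proteasome subunits, 38 replication and mitosis genes and 24 oocyte and eggshell genes had 0 members at an unadjusted p under 0.05, and 79 cytosolic ribosomal protein genes had 1 higher and 2 lower. The germline markers summed to 5632 to 6092 TPM at midday and 5714 to 6055 TPM at the edges.

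In mock worms, with the same time points and other plates, 0 genes passed at an adjusted p under 0.05 between midday and both edges. Of 13813 genes, 733 had an unadjusted p under 0.05, and 3 passed at 0.30 (0.0217%). These were *C25F9.16* (log2 difference 0.78), *F01D5.5* (0.71) and *ugt-26* (0.36), all higher at midday, and in K-NAA their differences were -0.18, 0.04 and -0.04. The test of the difference between the conditions gave 0 genes at 0.05 (0%) and 0 at 0.30, with a lowest adjusted p of 0.564 from limma, and 450 genes (3.26%) at an unadjusted p under 0.05. The UDP-glucuronosyltransferase gene *ugt-63* had the smallest p. In K-NAA it held 8.63 TPM (median; 7.27 to 10.3) at midday and 10.7 TPM (8.84 to 13.04) at the edges. In mock it held 9.52 TPM (7.18 to 11.5) and 7.98 TPM (5.68 to 8.88), so the differences were -0.29 and 0.31 (adjusted p of the difference 0.564, limma). *unc-103*, a potassium channel gene, had -0.14 in K-NAA and 0.29 in mock, *nspe-1* -0.48 and 0.28, *clec-258* -0.22 and 0.57, and *C34B2.9* -0.20 and 0.33. *K01A6.8* was listed at 0 in all 8 midday libraries of K-NAA and at 0 to 2.04 TPM in the edge libraries, above 0 in 6 of 8. Of the 24 leading genes of K-NAA, 16 had the same direction in mock, where 56.1% of all tested genes did, and 1 of them, *sms-2*, also had an unadjusted p under 0.05 there.

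Against the early edge, mock gave 3 genes at an adjusted p under 0.05 (0.0217%), *clec-62*, *K06A4.7* and *H14E04.3*, all higher at midday and none called in K-NAA. The difference between the conditions in that comparison gave 0 genes (0%), with a lowest adjusted p of 0.666 from limma and 714 of 13813 genes at an unadjusted p under 0.05. Of the 64 genes called in K-NAA, 59 had the same direction in mock (92.2%, against 59.2% of all tested genes). The median over the 36 lower genes was -0.52 in K-NAA and -0.29 in mock, and over the 28 higher genes 0.41 and 0.15. The 64 were chosen by their K-NAA values, which enlarges their K-NAA medians and not those of mock. The smaller medians in mock therefore do not show a weaker change there. *col-80* had -0.60 and -0.54, *col-101* -0.34 and -0.35, *grd-5* -0.41 and -0.40 and *clec-85* 0.35 and 0.28. *fat-2* had 0.25 and -0.0014, *ttr-1* -0.94 and -0.11, *F53F1.4* -1.03 and 0.07 and *mtl-1* 1.39 and 0.25, and none of these differences between the conditions passed. The time of day and the age of the worms advanced together and cannot be told apart here.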

How the data were processed

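Whole-body poly(A) RNA was extracted with TRIzol and RNeasy and sequenced from 24 mock and 24 K-NAA plates. The authors quantified reads with Salmon and deposited TPM values, 1 table per condition; the labels list the build ce10. TPM keeps no depth. The 7 columns of rhythm statistics in each table hold the authors' own comparison and were not used. Gene positions are from the WBcel235 annotation. Sides were set by the labelled CT. log2(TPM + 0.5) was tested with limma 3.58.1 in R 4.3.3 (moderated test with a trend, two-sided), in genes averaging 0.25 TPM or more over 48 libraries, with Benjamini-Hochberg adjustment. The 16 K-NAA libraries were fitted as 2 sides, then as midday and 2 edges; mock was fitted alike, and the difference as an interaction. The code was tested on simulated data. Named genes were the 12 a direction averaging 1 TPM or more with both edges on one side of midday, to be ordered by change among calls and, as none passed, by the smallest p; the clock gene homologs; the 6 with the smallest p of the difference between conditions; and genes whose sides did not overlap. The up to 10 genes a direction of the early edge, the called genes of the late edge and mock, and the comparisons of the late with the early edge and of mock at the early edge were added after results were seen. Genes and lists were chosen with earlier results of these data known. A search for ROR response elements was not run. Plates are the replicates. The p-values of the main fits weigh a difference against the spread between plates and between the time points of a side.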

Additional observations from a re-analysis of the deposited data

Results flagged for a closer look

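In 4 of 84 groups of 8 libraries tested, 1 library lay far from the other 7; chance gives about 1 in 20 groups. *F45E4.5* held 6.966 TPM in CT23 replicate 2, where the nearest other edge library held 5.336 TPM. *Y116A8C.19* held 4.193 TPM in CT3 replicate 2, where the nearest edge library held 2.421 TPM. CT1 replicate 1 had 15239 genes above 0, against 15604 in the nearest edge library. In CT21 replicate 2 the 10 most abundant genes held 6.666% of the total, against 7.531% in the nearest edge library.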

How the results depend on the processing

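Counts of calls are at an adjusted p from limma. For K-NAA midday against both edges, a mean for each time point gave 3 genes at 0.05 and 23 at 0.30, and a narrower window (CT11 and CT13 against CT1 and CT23) 1 at 0.30. Leaving out libraries gave 0 to 3 at 0.05, 0 to 15 at 0.30 and 398 to 1231 at an unadjusted p under 0.05. For the early edge (64 genes at 0.05, 614 at 0.30), no filter on low values gave 38, a mean for each time point 106 and no trend in the variance 33, and at 0.30 quantile normalization gave 930 and time point as a random block 1017. Leaving out libraries gave 0 to 109 and 0 to 1032. For the late edge (2 genes at 0.30), pseudocount 1, a minimum of 1 TPM, the replicate block and linear TPM gave 0, no filter and quantile normalization 1, the random block 5, a mean for each time point 8, and leaving out libraries 0 to 16. For the late against the early edge (125), no filter gave 75, the random block 200, no trend 80, and leaving out libraries 0 to 148. In mock at both edges (3 genes at 0.30), no filter and the replicate block gave 6, the median ratio, averaged plates, the random block, no trend and linear TPM 0, a linear term or a mean for each time point 1, and leaving out libraries 0 to 10. In mock at the early edge (3 genes at 0.05), no filter gave 1, a minimum of 1 TPM and linear TPM 10, the median ratio 8, quantile normalization 6, the replicate block and the random block 11, a mean for each time point 17, and leaving out libraries 0 to 24. The difference between conditions at the early edge (0) became 1 with a mean for each time point and 3 with linear TPM, and 0 to 1 when libraries were left out. The cause of these changes was not tested.

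Deviations of plates with the same replicate number correlated at -0.132 to 0.314 over 66 pairs of time points (median 0.0213), over 0.1 in 13. The sources do not say whether such plates share a batch. With the replicate block, midday against both edges gave 0 genes and the early edge 77.

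Some small differences changed sign. With the narrower window *aha-1* was at -0.0073, *ces-2* at -0.024 and *lin-42* at -0.10. With linear TPM *lin-42* was at -0.015 and *pdf-1* at -0.064, with the median ratio *pdf-1* at -0.0055, and with quantile normalization *pdf-1* at -0.0052 and *nhr-23* at -0.0024. Leaving out libraries gave -0.012 to 0.085 for *aha-1*, -0.014 to 0.34 for *ces-2*, -0.18 to 0.021 for *kin-20*, -0.16 to 0.21 for *lin-42*, -0.028 to 0.047 for *nhr-23*, -0.15 to 0.039 for *nhr-85*, -0.10 to 0.12 for *pdf-1*, -0.067 to 0.20 for *pdfr-1* and -0.076 to 0.031 for *tim-1*. Of the other gene-level values under an alternative, 2312 kept direction and side of the threshold, 492 lost the call and 2 gained one.

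Depth is unknown, so no counting error can be given. With 2 plates a time point, and 4 libraries at each edge, changes under about the interval widths given in the report could not be seen.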
